A study of Arabidopsis thaliana with 4 samples.

Results

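LTP4 (AT5G59310), LTP3 (AT5G59320) and MAH1 (AT1G57750, also CYP96A15) are Arabidopsis thaliana genes of the leaf and stem surface, and all 3 gave much brighter signals in leaves that overexpress AAF than in wild-type leaves. They were read from the probe sets 247718_at, 247717_at and 246380_at, 3 of the 22746 probe sets on the array that are not controls. The platform's gene table used here names none of the 3 probe sets, so their genes are those given with the choice of the probe sets, and the RefSeq gene table of assembly TAIR10.1 supplied the gene names. The 3 were chosen from measured values of these same arrays together with their link to the cuticle and to water deficit. Their differences between genotypes are therefore a description and carry no test.

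AAF-OX plants, a transgenic line in the Col-0 background that overexpresses AAF, were compared with wild-type Col-0 plants. Both were 3 weeks old, received 16 h of light and 8 h of darkness per day, and gave rosette leaves for total RNA. Each genotype was hybridised to 2 Affymetrix arrays, 4 in all, run as 2 independent sets, and each set is taken here to hold 1 AAF-OX and 1 Col-0 array (set 1 and set 2). The labels name neither the promoter that drives AAF, nor how many transgenic lines or plants were pooled, nor whether the sets were grown separately, so p-values reflect array-to-array spread that could be purely technical.

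Lipid transfer proteins are small, secreted, cysteine-rich proteins that bind lipids in an internal cavity and are abundant in the epidermis of aerial organs, where they have been linked to the cuticle and to defence. LTP3 and LTP4 are known as genes that respond to abscisic acid and water deficit. The cuticle is made of the polyester cutin and of waxes, and MAH1 is the cytochrome P450 that hydroxylates wax alkanes to secondary alcohols and ketones, best known from the stem, since leaf wax holds little of these products.

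LTP4 had signals of 604 in set 1 and 746.3 in set 2 in AAF-OX leaves, against 25.2 in set 1 and 68.6 in set 2 in Col-0 leaves. The means were 675.1 ± 100.7 in AAF-OX and 46.9 ± 30.7 in Col-0 (SD, n = 2 each). Both AAF-OX arrays stood far above both Col-0 arrays. Among all probe sets of its array, LTP4 lay at the 75.4 and 80.3 percentiles in AAF-OX leaves and at the 20.3 and 35.5 percentiles, the dim end, in Col-0 leaves. On the scale of log2(signal + 50), the difference of AAF-OX minus Col-0 was 3.12 in set 1 and 2.75 in set 2, a mean of 2.93 ± 0.26 (SD of the sets, n = 2) or 7.64-fold. The constant of 50 damps noise in dim signals and makes the fold of a dim gene smaller: with a constant of 1 the log2 difference of LTP4 was 3.98, and the plain ratio of the signals was 24.0 in set 1 and 10.9 in set 2.

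LTP3, the gene next to LTP4 on chromosome 5, had signals of 1010 in set 1 and 1020 in set 2 in AAF-OX leaves, against 201.9 in set 1 and 81.6 in set 2 in Col-0 leaves. The means were 1015 ± 6.88 in AAF-OX and 141.7 ± 85.0 in Col-0 (SD, n = 2 each). The groups did not overlap, and the AAF-OX arrays were almost equal while the Col-0 arrays differed 2.47-fold between sets. The log2 difference on the signal plus 50 scale was 2.07 in set 1 and 3.02 in set 2, a mean of 2.55 ± 0.67 (SD of the sets, n = 2) or 5.85-fold. LTP3 and LTP4 are close relatives, and how far the probes of one also bind transcripts of the other was not tested. In Col-0 the 2 probe sets moved in opposite directions between sets, LTP4 being brighter in set 2 and LTP3 in set 1. The Col-0 signals of LTP4 were dim, at 25.2 and 68.6, and no inference on cross-binding is drawn from these directions.

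MAH1 had signals of 794.9 in set 1 and 1147 in set 2 in AAF-OX leaves, against 80.3 in set 1 and 222.8 in set 2 in Col-0 leaves. The means were 970.9 ± 248.9 in AAF-OX and 151.5 ± 100.8 in Col-0 (SD, n = 2 each). The groups again did not overlap, and set 2 was the brighter set in both genotypes. The log2 difference on the signal plus 50 scale was 2.70 in set 1 and 2.13 in set 2, a mean of 2.42 ± 0.40 (SD of the sets, n = 2) or 5.33-fold. RNA came from whole leaves, so more cells that express these genes and more RNA per cell cannot be told apart.

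**Figure D1:**
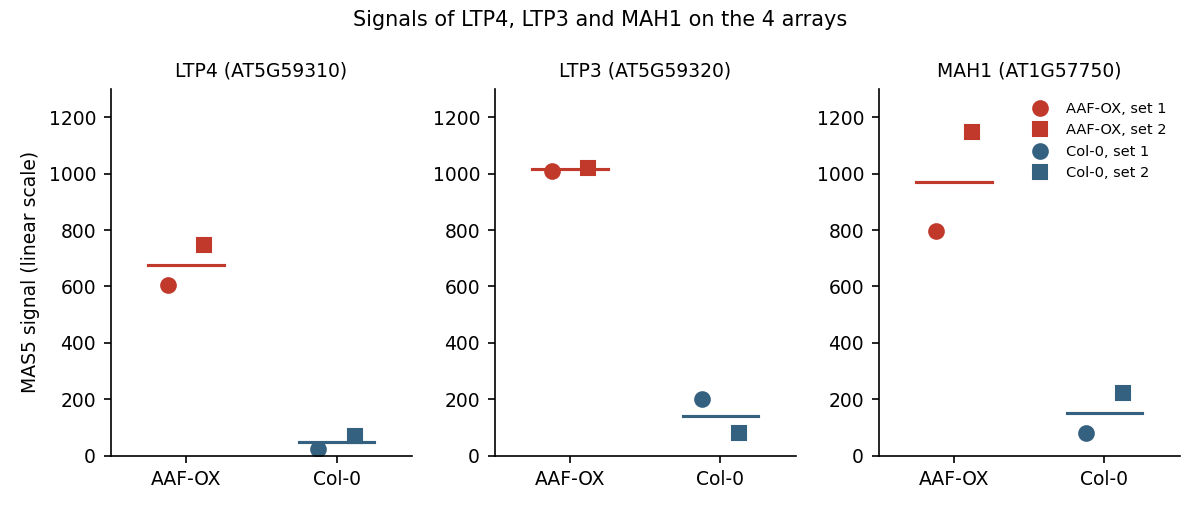
MAS5 signal (linear scale) of LTP4, LTP3 and MAH1 on each array, with circles for set 1, squares for set 2 and a line at the mean of each genotype. The AAF-OX arrays lie between 604 and 1147 over the 3 genes, above every Col-0 array, of which 222.8 is the brightest.

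Of the 13592 probe sets with a mean signal of at least 100, the 3 genes were among the 9 that were at least 4-fold higher in AAF-OX in both sets (0.0662%), on the signal plus 50 scale. They ranked 3 (LTP4), 6 (LTP3) and 7 (MAH1) by mean increase. Both results depend on the constant. With a constant of 1 the count was 12, the 3 genes included, and their ranks were 2, 8 and 10. With a constant of 100 the count was 4 and the ranks were 4, 5 and 7. LTP4 was then still at least 4-fold higher in both sets. LTP3, at a log2 difference of 1.88 in set 1, and MAH1, at 1.95 in set 2, fell below 4-fold. All 3 passed the filter on dim signals, as did AAF. In Col-0 alone, LTP4 had a mean below that filter, so it was kept because of its AAF-OX signal. AAF-OX stood above Col-0 without overlap for all 3 genes and for 1069 of the 13592 probe sets (7.86%), and no inference is drawn from this count, since the genotype values chose the 3. Differences that large in both sets were otherwise seen for AAF itself, the defensins PDF1.2 and PDF1.2b, the glucanase-family gene AT4G16260 and a pair of probe sets with no single gene name here. Cross-binding between the defensin probe sets was not tested.

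**Figure D2:**
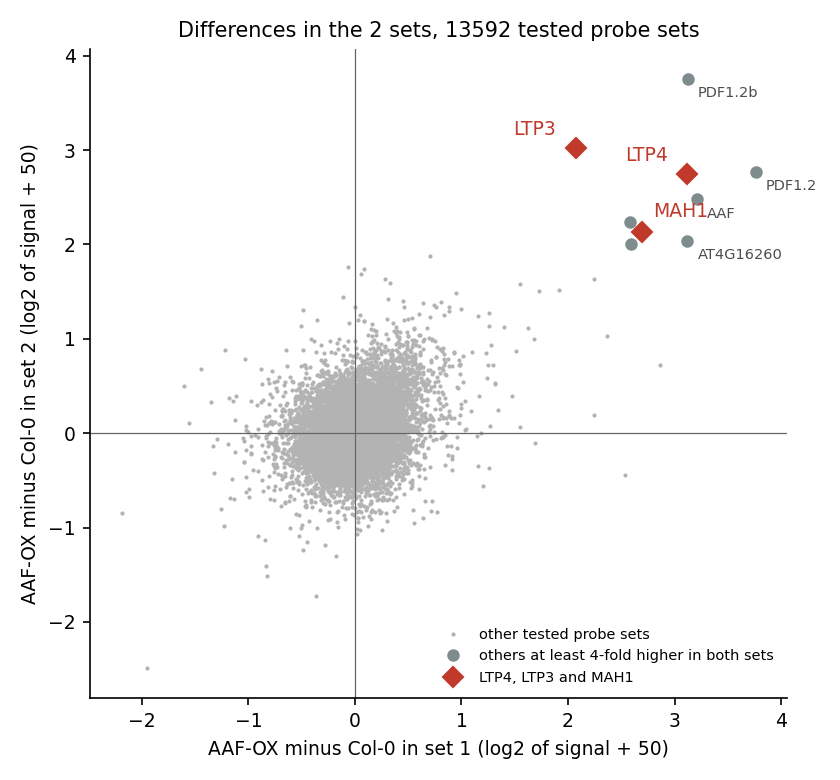
Difference of AAF-OX minus Col-0 in set 1 (x axis) and in set 2 (y axis), as log2(signal + 50), for the 13592 tested probe sets. LTP4 (3.12 and 2.75), LTP3 (2.07 and 3.02) and MAH1 (2.70 and 2.13) lie in the upper right corner with AAF, PDF1.2, PDF1.2b, AT4G16260 and a pair of unnamed probe sets.

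The AAF-OX signal in set 2 was 1.24 times that in set 1 for LTP4, 1.01 times for LTP3, 1.44 times for MAH1 and 1.04 times for AAF. For PDF1.2, PDF1.2b and AT4G16260 it was lower in set 2, with set 1 being 10.2, 6.52 and 10.7 times as bright, and for the unnamed pair set 1 was 2.41 and 3.01 times as bright. This comparison was made after the values were seen and was not tested. In Col-0 the signal in set 2 was 2.72 times that in set 1 for LTP4 and 2.78 times for MAH1, and that of LTP3 was 0.404 times. On the log2(signal + 50) scale these set differences were 0.28 (LTP4), 0.01 (LTP3) and 0.50 (MAH1) in AAF-OX and 0.66, -0.94 and 1.07 in Col-0 in the same order, beside median sizes over all tested probe sets of 0.32 in AAF-OX and 0.34 in Col-0. The sets themselves differed widely, with 3996 of 13592 probe sets (29.4%) called between set 2 and set 1 by limma. Whether the genotype difference of a gene changes between sets cannot be tested, since 1 array per genotype and set leaves 0 residual degrees of freedom.

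AAF, taken here as AT1G66330 from knowledge of the study, checks the labels and had 7442 and 7706 in AAF-OX leaves, against 759.9 and 1337 in Col-0 leaves. Its profile over the 4 arrays was the one most like that of LTP4 among the other 13591 tested probe sets. Likeness was measured as the root mean square difference between profiles of log2(signal + 50), each centred on its own mean, so that 0 means the same shape. It was 0.10 for LTP4 and AAF and 0.29 for MAH1 and AAF, the nearest in both cases, against 0.62 for LTP3 and AAF, where AAF was at place 4. The median distance to all tested probe sets was 1.52 for LTP4, 1.34 for LTP3 and 1.32 for MAH1. LTP4 and MAH1 were at 0.31 from each other, LTP4 and LTP3 at 0.60, and LTP3 and MAH1 at 0.73. The LTP4 distance to AAF depends on the constant added to the signals, at 0.58 with a constant of 1 and 0.23 with 100, where AAF was second to MAH1 in both. For MAH1, AAF was still the nearest with a constant of 1 but second to LTP4 with 100. For LTP3, AAF was at place 2 with a constant of 1 and at place 5 with 100. The points share 4 arrays only. LTP4, LTP3 and MAH1 were chosen from values of these same arrays, and AAF is the gene overexpressed in AAF-OX. Their shared large increase in AAF-OX therefore brings these profiles close in part through the choice of genes. No inference is drawn from the places and distances.

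**Figure D3:**
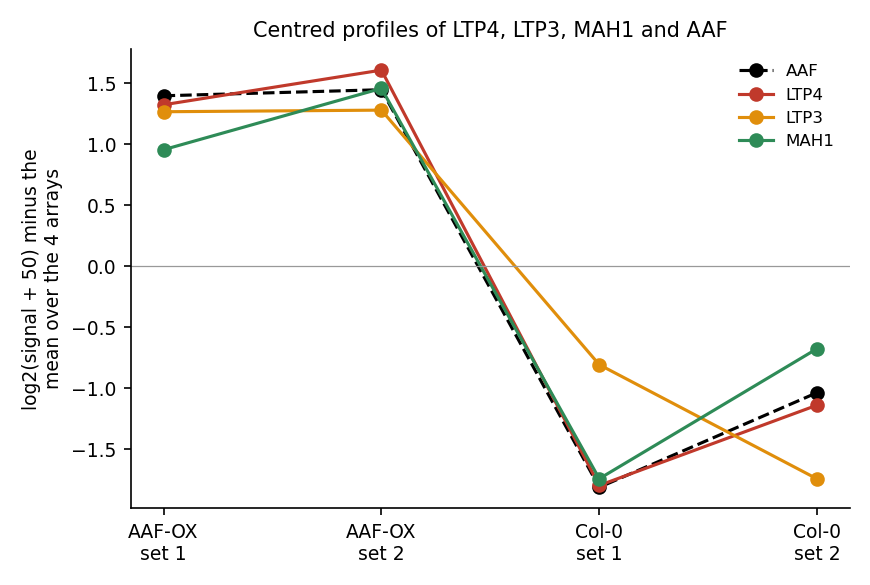
Profiles of LTP4, LTP3, MAH1 and AAF over the 4 arrays, as log2(signal + 50) minus the mean of the gene over the arrays. LTP4, MAH1 and AAF are lowest in Col-0 of set 1, while LTP3 is lowest in Col-0 of set 2.

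After AAF and the 3 genes themselves, the nearest named probe sets were further away. AT4G23680, from the major latex protein family, was at 0.82 from LTP4, 0.73 from LTP3 and 0.65 from MAH1. It had 311.0 and 254.5 in AAF-OX leaves, against 67.2 and 90.9 in Col-0 leaves, with no overlap. The glutaredoxin-family gene AT4G15680 was at 0.92 from LTP4 and 0.71 from MAH1, and AT3G23550, of the MATE efflux transporter family, was at 0.75 from LTP3. AT1G66850 was at 0.73 from MAH1, with 220.7 and 125.5 in AAF-OX leaves and 7.03 and 103.0 in Col-0 leaves. Up to 5 probe sets with no single gene name here lay closer than these.

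The genes beside LTP4, LTP3 and MAH1 on their chromosomes had no difference of that size. Of the 10 nearest measured and named genes around LTP4 and LTP3, 5 on each side, the median log2 difference was -0.04, with a range of -0.32 to 0.48, and for the 10 around MAH1 it was -0.04, with a range of -0.27 to 0.09. The median over all 13592 probe sets was -0.02. None of the 20 passed limma's test at an adjusted p under 0.05, with or without the sets as a block, where the block called 210 of 13592 probe sets (1.55%). The largest of these neighbours, AT5G59450, had 0.26 in set 1 and 0.69 in set 2 (limma's adjusted p = 0.239 with the block). Measured genes are only some of those present, and the nearest of them lay 3 to 7 protein-coding genes away.

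**Figure D4:**
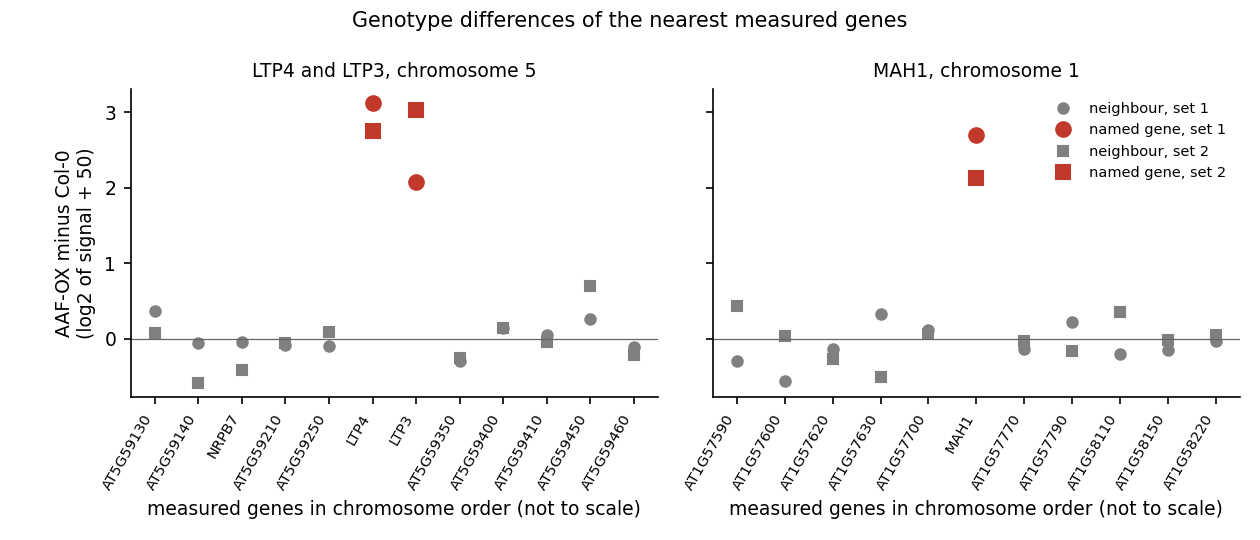
Difference of AAF-OX minus Col-0, as log2(signal + 50), of LTP4, LTP3 and MAH1 and of the 5 nearest measured and named genes on each side, in chromosome order and not to scale. Each neighbour lies between -0.59 and 0.69 in both sets, while the 3 genes lie at 2.07 or above.

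Other genes of the surface and of water deficit were taken from lists by function, of which few could be read, since most list members have no named probe set here. The 6 lists for lipid transfer proteins, wax synthesis, wax and cutin regulators, the CYP96A family, cutin synthesis, and abscisic acid and water deficit held 112 genes, of which 18 had a named probe set and 12 passed the filter. In the fit with the sets as a block, 1 of the 12 was called higher in AAF-OX, where 1.34% of all probe sets were called higher. Another 2, COR15A and COR15B, were called lower, where 0.206% of all probe sets were. The lists were chosen with earlier results of these data known, so no inference is drawn from these counts. Without the block limma called 0 of the 12 and 0 of all 13592 probe sets (117 of the 13592 at an unadjusted p under 0.05), AAF included. The median log2 difference of the 12 was -0.18, beside -0.02 over all tested probe sets.

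Among wax genes, WSD1, which codes for the wax ester synthase of Arabidopsis stems, was the one called. It had 282.8 in set 1 and 362.6 in set 2 in AAF-OX leaves, against 152.5 and 191.7 in Col-0 leaves. The groups did not overlap, and the sets gave near-equal log2 differences of 0.72 and 0.77, a mean of 0.74 ± 0.16 (SE; limma's adjusted p = 0.0456 with the block, limma's adjusted p = 0.9999 without it). That call lies near the threshold and passed in 2 of 6 other settings run with the block, with adjusted p from 0.0304 to 0.268. The acyltransferase-family genes CER26 and AT3G23840, which belong to the elongation of wax precursors, had log2 differences of -0.11 and -0.29 (limma's adjusted p = 0.848 and 0.669 with the block). The CER1 relative AT1G02190, with 100.9 and 89.4 in AAF-OX leaves and 56.9 and 67.0 in Col-0 leaves, was below the filter.

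Neither of the 2 tested genes of the lipid transfer list passed. AZI3 (AT4G12490) and AT4G12500, a neighbouring pair of proline-rich proteins with a lipid transfer domain, had log2 differences of opposite sign in the sets, at -0.51 in set 1 and 1.14 in set 2 for AZI3 and -0.48 and 1.31 for AT4G12500 (limma's adjusted p = 0.798 and 0.758 with the block). Cross-binding between the AZI3 and AT4G12500 probes was not tested. Below the filter, LTP10 (AT5G01870) had 96.3 and 64.1 in AAF-OX leaves, against 141.2 and 97.9 in Col-0 leaves. LTP8 (AT2G18370) had 70.8 and 92.9 in AAF-OX leaves, against 62.0 and 82.8 in Col-0 leaves, and LTP9 (AT2G15325) was at 22.8 or below on every array. None of these 5 had the large difference in both sets that LTP4 and LTP3 had, whereas LTP1, LTP2, LTP5 and LTP6 were not analysed here.

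The water deficit genes that passed the test with the block went the other way. The cold and dehydration responsive chloroplast proteins COR15A and COR15B fell to 0.465 and 0.56 times the Col-0 level on the signal plus 50 scale. Limma's adjusted p was 0.00118 and 0.00865 with the block, and 0.9999 for both without it. Their mean log2 set differences were 1.81 and 2.50, beside genotype differences of -1.10 and -0.84. Their loci, AT2G42540 and AT2G42530, carry adjoining numbers, and cross-binding of their probes was not tested. COR15A had 376.7 and 1582 in AAF-OX leaves, against 949.1 and 3174 in Col-0 leaves, lower within each set but with overlapping groups across sets. The dehydrins COR47 and LTI30 had log2 differences of -0.19 and -0.32 and did not pass (limma's adjusted p = 0.602 and 0.587 with the block). All 4 were brighter in set 2 (limma's adjusted p of at most 0.0004 for the set with a genotype term), a fit in which 39.4% of all tested probe sets were called. LEA4-5, a late embryogenesis abundant protein, had 16.4 and 23.4 in AAF-OX leaves and 8.76 and 3.50 in Col-0 leaves, below the filter.

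Of the regulators, DEWAX, a repressor of wax genes, had a log2 difference of -0.03 and its relative AT5G07580 had -0.17, while SHN3, an activator of cutin genes, was below the filter with 68.9 and 33.6 in AAF-OX leaves and 59.0 and 12.9 in Col-0 leaves. The cutin synthase-like gene AT5G33370 had 0.21 in set 1 and -0.66 in set 2. Adjusted p over all probe sets was 0.706 to 0.975 for these 3 tested genes (limma with the block). None of the 11 other CYP96A genes had a named probe set.

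**Figure D5:**
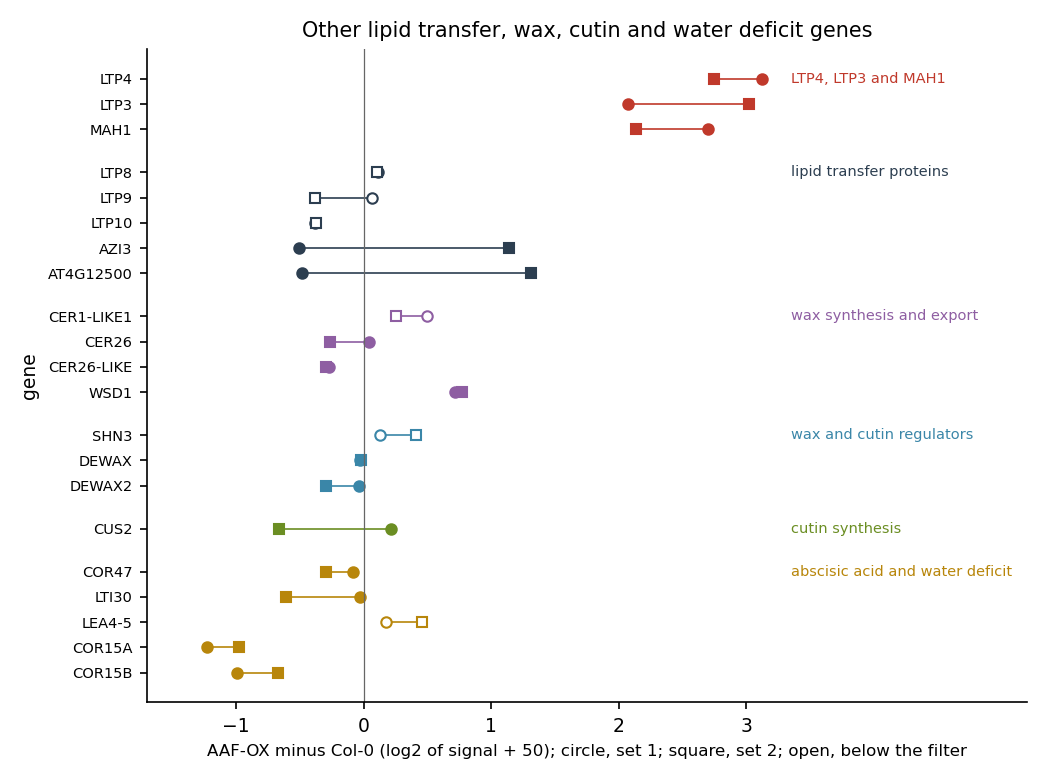
Difference of AAF-OX minus Col-0, as log2(signal + 50), in set 1 (circles) and set 2 (squares) for LTP4, LTP3, MAH1 and the list genes with a named probe set, open symbols being below the filter. LTP4, LTP3 and MAH1 lie at 2.07 or above in both sets, WSD1 lies at 0.72 and 0.77, and COR15A and COR15B lie below 0 in both.

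The photosynthesis genes RCA, LHCB4.1 and LHCB4.2, the 3 of 12 leaf markers with a named probe set, were bright in both genotypes. With no floral organ marker to set beside them, they do not by themselves establish leaf identity. RCA, the Rubisco activase gene, had 23017 and 27154 in AAF-OX leaves and 25135 and 28152 in Col-0 leaves. The summed signal of the 3 was 59444 and 82153 in AAF-OX and 69061 and 87338 in Col-0, and none passed the test (limma's adjusted p of at least 0.421 with the block). Of 8 markers of epidermis and trichomes, 1 had a named probe set, the epidermal receptor kinase ACR4, which was below the filter. It had 101.2 and 80.7 in AAF-OX leaves and 94.1 and 92.1 in Col-0 leaves. None of 8 floral organ markers had a named probe set. The part of floral or epidermal tissue in the differences of LTP4, LTP3 and MAH1 was therefore not tested.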

How the data were processed

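The deposited table holds linear intensity values, made with MAS5 per the submitters' processing notes, whose version is not given in the sources used here. The authors' scaling shows in the values: the mean after trimming 2% at each end is 500.04 to 500.05 on the 4 arrays. Detection calls and scanner files were not used here. The number of arrays, 2 per genotype, limits the precision. The 64 control probe sets were left out, and probe sets with a mean signal of at least 100 were kept (13592 tested, 9154 left out). A single gene was named for 13513 probe sets, several for 503 and none for 8730, and 13436 matched a TAIR10.1 locus. Probe sets with several genes were treated as unnamed. No probe coordinates are given, since no build is named for the probes.

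Signals were taken as log2(signal + 50) and fitted with limma 3.58.1 under R 4.3.3 (by lmFit and trended eBayes, two-sided tests, Benjamini-Hochberg adjustment across all probe sets kept, threshold 0.05). The fit of genotype alone was the planned one, and the alternative blocks on the replicate number, with 1 residual degree of freedom beside 10.7 from the prior. The numbers were taken to mark the 2 stated sets, and the deviations of arrays with the same number from the means of their genotypes correlated at 0.856. For the set contrast the model held the set and not the genotype, or both where a genotype term is named. The fits were tested on simulated data.

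The 3 genes, the gene lists and the naming rule were chosen with earlier results of these data known. Named were the 3 genes, AAF, up to 4 genes per list past the threshold in the blocked fit or else the 2 with the smallest p, the 5 nearest named profiles, and 5 measured genes on each side. The other list genes with a probe set are given outside that rule. Of several probe sets per gene the brightest was used. Alternatives were the block, pseudocounts of 1 and 100, dropping the filter or raising it to 250, median centring, quantile normalization, an untrended variance, and leaving out each array.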

Additional observations from a re-analysis of the deposited data

How the results depend on the processing

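The replicate block decides the calls: limma called 0 of 13592 probe sets without it and 210 with it. Without the block the count was also 0 under the other settings, of which those on the filter test other numbers of probe sets. Leaving out each array also gave 0, but with a lone array assumed to vary like the other genotype, and says nothing about stability. Together with the block, the count was 76 and 276 with pseudocounts of 1 and 100, 18 without the filter, 233 with a mean of at least 250, 292 with quantile normalization, 137 with median centring and 21 without the intensity trend. The list genes called, leaf markers included, were 0 in all fits without the block, 3 with it, and then 2, 3, 1, 2, 3, 2 and 1 in the same order. COR15A passed in 7 of 7 of these settings with the block, COR15B in 5 of 7 and WSD1 in 2 of 6. The count between sets ran from 3063 to 5350 around 3996.

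The log2 differences of LTP4, LTP3 and MAH1 kept their sign in every setting run. That of LTP4 was 3.98 and 2.41 with pseudocounts of 1 and 100, against 2.93, and that of MAH1 was 2.83 with a pseudocount of 1, against 2.42. Leaving out 1 array gave 2.60 to 3.26 for LTP4, 2.08 to 3.02 for LTP3 and 1.88 to 2.95 for MAH1, values that also carry part of the difference between sets. The profile distance to AAF, recomputed after seeing the data with pseudocounts of 1 and 100, was 0.58 and 0.23 for LTP4, 0.75 and 0.59 for LTP3, and 0.29 and 0.36 for MAH1. Beyond the damping of dim signals by the constant, the cause was not tested. Dim signals limit the Col-0 values, most of all that of LTP4 in set 1, at 25.2. The other Col-0 signals of the 3 genes were 68.6 to 222.8. On each array 30.1% to 31.4% of probe sets were under 50.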
